A study of Saccharomyces cerevisiae YPS1009 with 8 samples.

Results

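Ribosome footprints on the genes of the proteasome and on RPN4, which encodes their transcriptional activator, were compared between euploid and aneuploid yeast in growing and in stationary cultures. The genes were taken by name from a list of 34, made up of 14 genes of the 20S core, 19 genes of the 19S particle and RPN4. All 34 were among the 6536 genes listed in the tables, and all 34 passed the expression filter that left 5794 genes for testing.

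The proteasome is the protease that degrades proteins tagged with ubiquitin. Its 20S core is a barrel of stacked rings, in which outer α rings gate the entry and inner β rings carry the active sites. The 19S particle caps the barrel. Its base unfolds substrates with a ring of ATPases and holds ubiquitin receptors, and its lid removes ubiquitin. In budding yeast Rpn4 activates most proteasome genes through an element in their promoters, and is itself a short-lived substrate of the proteasome, so that its level is set in a feedback loop. Proteasomes of stationary yeast are known to leave the nucleus and gather in cytoplasmic granules.

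The cells were haploids of the wild oak strain YPS1009, either euploid or carrying an extra copy of chromosome XII (Chr12), and were grown in YPD, a rich glucose medium, at 30 °C from an OD600 of 0.05. Each karyotype was a single engineered MATa line with ho deleted. Per the study's strain list, both carried a NatMX drug marker in an intergenic site of chromosome XII, and Chr12 also lacked HIS3 at its own locus and held a His3MX6 marker on the other copy of that chromosome. Log phase cells were taken after 3 generations and stationary cells on day 4, so the 4 groups were euploid log phase, Chr12 log phase, euploid day 4 and Chr12 day 4. The design gave 2 biological replicates per group and 8 libraries in all.

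Libraries held 1455211 to 2354539 footprint reads in log phase. At day 4 the replicate 1 libraries were shallow, with 211302 reads (euploid) and 396306 reads (Chr12), against 6215498 and 2224955 in replicate 2. Levels are given as CPM, the read count of a gene scaled to the library total after TMM scaling, which sets each library against the bulk of its genes. They are shares of the footprints and say nothing of how much a cell translated in all, and fewer translating cells and less translation per cell cannot be told apart in them. As a check of the labels, chromosome XII genes stood above the others in Chr12 against euploid, by 1.65-fold in log phase and 1.76-fold at day 4 (difference of the medians of 499 and 5295 genes).

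By their mean over the 8 libraries, all 33 subunits had a higher footprint density than the typical gene. RPKM is the CPM per kilobase of coding length, with the reads of the whole row counted. The subunits' mean over the 8 libraries ran from 67.2 RPKM for RPN9 (YDR427W, lid) to 393 RPKM for PRE9 (YGR135W, the α3 subunit). RPN4 (YDL020C) held rank 25 of 34 at 123 RPKM. The PRE9 mean was raised by euploid day 4 replicate 1, at 1589 RPKM, where 309 of its 329 reads lay at 1 position. In log phase the group means of PRE9 were 160 RPKM (euploid) and 204 RPKM (Chr12). PRE9 and SEM1 (YDR363W-A, the smallest lid subunit, 337 RPKM) were followed by RPN13 (YLR421C, a ubiquitin receptor of the base, 297 RPKM). RPN12 (YFR052W), PUP1 (YOR157C) and RPN6 (YDL097C) lay just above RPN9, at 99.6, 94.04 and 92.4 RPKM. The row of PRE3 (YJL001W) spans its intron, so its density of 111 RPKM is understated. The median over all tested genes was 22.5 to 24.3 RPKM in the log phase libraries and 30.8 to 32.3 RPKM in the day 4 libraries.

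Within a library the spread of density among the subunits was modest, except in the shallowest library. The SD of log2 RPKM over the 33 subunits was 1.31 in euploid day 4 replicate 1 and 0.48 to 0.79 in the other 7 libraries. The median density of the core was 1.001 to 1.40 times that of the 19S particle.

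RPN4 rose at day 4 in both strains. In log phase it stood at 43.5 and 32.9 CPM in the euploid (replicates 1 and 2) and at 35.8 and 47.8 CPM in Chr12. At day 4 it stood at 364 and 551 CPM in the euploid and at 179 and 315 CPM in Chr12. Every day 4 library was above every log phase library, and both euploid day 4 libraries were above both Chr12 ones. The group means were 38.2 ± 7.53 and 458 ± 133 CPM (SD, n = 2) for the euploid, and 41.8 ± 8.49 and 247 ± 96.2 CPM (SD, n = 2) for Chr12. The increase was 3.58 ± 0.53 (SE) on the log2 scale in the euploid, an 11.99-fold change (edgeR, adjusted p = 0.00330). In Chr12 it was 2.56 ± 0.51 (SE), a 5.92-fold change (edgeR, adjusted p = 0.0114). RPN4 was the single gene called among the 34 in either strain, where 15.6% of all tested genes were called higher in the euploid and 13.2% in Chr12. By its log2 fold change it ranked 414 of 5794 genes in the euploid and 643 of 5794 in Chr12.

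The Chr12 call was lost without Chr12 log phase replicate 1 (2.37, edgeR adjusted p = 0.0910), without Chr12 log phase replicate 2 (2.80, edgeR adjusted p = 0.0905) and without Chr12 day 4 replicate 2 (2.10, edgeR adjusted p = 0.0681), while the direction stayed. The euploid call stood under all 16 alternatives, with log2 fold changes of 2.90 to 3.86 and a highest edgeR or DESeq2 adjusted p of 0.0418.

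The reads behind RPN4 were not gathered at single positions. They numbered 42 to 79 in the 4 log phase libraries, 97 and 3422 at day 4 in the euploid, and 99 and 814 there in Chr12. At day 4 they fell on 64 and 371 positions in the euploid and on 79 and 175 positions in Chr12, and no position held over 14.4% of the gene's reads in any of the 8 libraries.

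**Figure D1:**
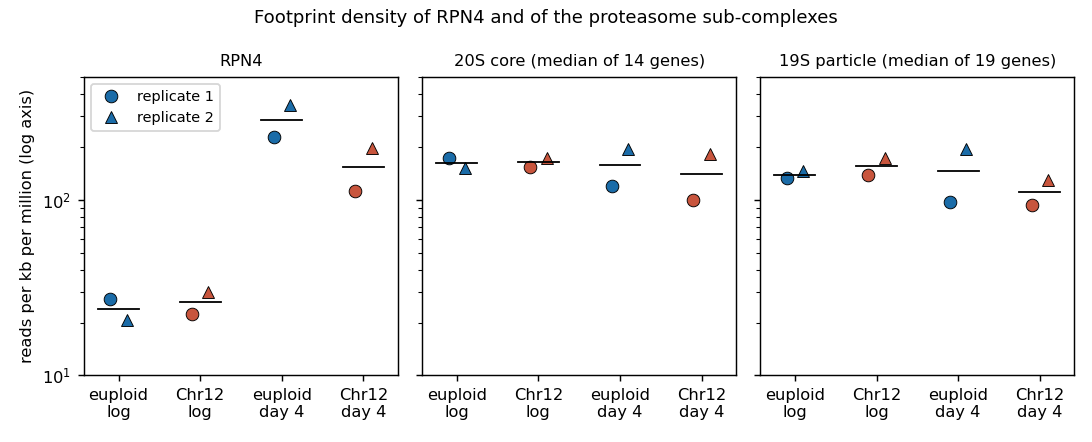
RPKM (log axis) of RPN4 and the median over the 14 core and the 19 19S particle genes, by group, with a circle for replicate 1, a triangle for replicate 2 and a line at their mean. All 4 day 4 values of RPN4 lie above all 4 log phase values, whereas the day 4 medians of the sub-complexes lie on both sides of the log phase ones of their strain, except that both medians of the 19S particle in Chr12 day 4 (92.9 and 130 RPKM) lie below those of log phase (138 and 173 RPKM).

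The 33 subunits showed no such change. At day 4 against log phase edgeR called 0 of 33 subunits in the euploid, with 1 at an unadjusted p under 0.05, and 0 of 33 in Chr12, with 2 at an unadjusted p under 0.05. Over all genes tested, 11.6% were called lower in the euploid and 9.67% in Chr12, beside the shares called higher given above. An unadjusted p under 0.05 was held by 2228 of 5794 genes in the euploid and 2069 of 5794 in Chr12. DESeq2 called 1 subunit in the euploid (PRE9, higher) and 2 in Chr12 (PUP2, YGR253C, the α5 subunit, and RPN13, both lower). Over all genes tested DESeq2 called 901 higher and 817 lower in the euploid, and 786 higher and 789 lower in Chr12. The median SE of the subunits' log2 fold changes was 0.52 in each strain, and a value that did not pass does not show that a subunit was unchanged.

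As a description, the subunits lay below the bulk of the genes in Chr12, and in the euploid their place depended on the libraries. Their median log2 fold change was 0.18 (euploid) and -0.19 (Chr12), against 0.39 and 0.25 over all genes tested, which puts them 0.21 and 0.44 below that median. With RLE size factors the medians of all genes moved to 0.24 and 0.08, and the subunits lay 0.19 and 0.43 below them. The euploid subunits lay 0.26 above the median of all genes with the second tables of the replicate 1 libraries and 0.49 above it without euploid day 4 replicate 1, while those of Chr12 lay below it under all 16 alternatives. Both day 4 libraries lay above both log phase libraries for 9 of 33 subunits in the euploid (27.3%, against 33.1% of all genes tested) and below them for 6 (18.2%, against 26.6%). In Chr12 this was so for 4 subunits above (12.1%, against 36.1%) and 12 below (36.4%, against 28.4%).

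These medians turned on single libraries. Replicate 1 alone placed the euploid median at -0.50 on the log2 scale, with 11 of 33 subunits above 0, and replicate 2 alone at 0.42, with 24 of 33 above 0. For Chr12 both were negative, at -0.32 and -0.27. The fitted euploid median was 0.49 without euploid day 4 replicate 1 and -0.80 without euploid day 4 replicate 2. That of Chr12 was -0.78 without Chr12 day 4 replicate 2, -0.42 without Chr12 log phase replicate 1, -0.08 without Chr12 day 4 replicate 1 and 0.06 without Chr12 log phase replicate 2. Without euploid day 4 replicate 2, 4 subunits passed the FDR in the euploid, PRE9 and RPN5 (YDL147W, lid) higher and PRE6 (YOL038W, α4) and PRE8 (YML092C, α2) lower. They are named here after their values were seen.

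**Figure D2:**
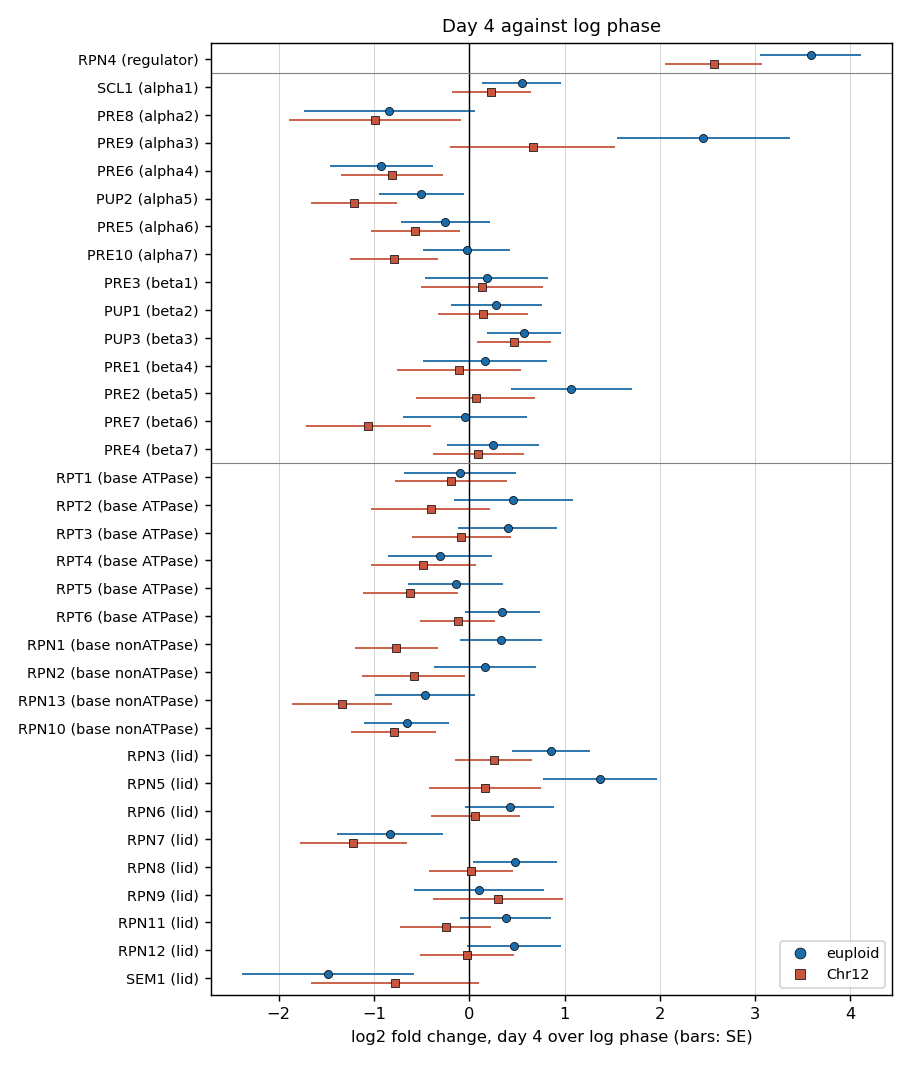
Log2 fold change of day 4 over log phase for RPN4, the core genes and the 19S particle genes, with circles for the euploid, squares for Chr12 and bars for the SE. RPN4 stands apart at 3.58 and 2.56, and the subunits lie on both sides of 0, from -1.48 (SEM1) to 2.46 (PRE9) in the euploid and from -1.33 (RPN13) to 0.66 (PRE9) in Chr12.

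The catalytic β subunits did not pass the test in either strain. PRE2 (YPR103W, β5, the chymotrypsin-like site) stood in log phase at 165 and 126 CPM in the euploid and at 143 and 132 CPM in Chr12, and at day 4 at 206 and 400 CPM and at 65.01 and 220 CPM. Its euploid phases did not overlap and its Chr12 phases did. The log2 fold change was 1.07 ± 0.63 (SE) in the euploid (edgeR, adjusted p = 0.254) and 0.07 ± 0.63 (SE) in Chr12 (edgeR, adjusted p = 0.957).

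PRE3 (β1, the caspase-like site) stood in log phase at 76.5 and 72.7 CPM in the euploid and at 76.5 and 99.01 CPM in Chr12, and at day 4 at 30.0 and 131 CPM and at 68.6 and 122 CPM. Its value of 30.0 CPM in euploid day 4 replicate 1 came from 8 reads, of which 6 lay at 1 position. PUP1 (β2, the trypsin-like site) stood in log phase at 69.4 and 57.9 CPM in the euploid and at 67.2 and 82.2 CPM in Chr12, and at day 4 at 48.8 and 102 CPM and at 66.8 and 97.4 CPM. In both genes the phases overlapped in the euploid and in Chr12, and replicate 2 was the higher library at day 4. Their log2 fold changes were 0.18 and 0.28 in the euploid and 0.13 and 0.15 in Chr12 (edgeR, adjusted p of 0.697 to 0.917). Over the 7 β subunits, with PUP3 (YER094C), PRE1 (YER012W), PRE7 (YBL041W) and PRE4 (YFR050C), the median was 0.25 in the euploid and 0.10 in Chr12, beside 0.39 and 0.25 over all genes tested.

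The 7 α subunits, SCL1 (YGL011C), PRE8, PRE9, PRE6, PUP2, PRE5 (YMR314W) and PRE10 (YOR362C), had a median of -0.25 in the euploid and -0.79 in Chr12. In each strain 5 of 7 had a negative log2 fold change, against 41.3% of all genes tested in the euploid and 43.2% in Chr12. In each strain edgeR called 0 of 7, with 1 at an unadjusted p under 0.05. For 5 of 7 α subunits both day 4 libraries of Chr12 lay below both of its log phase libraries, as they did for 1 of 7 β subunits and for 28.4% of all genes tested. PUP2, the lowest α subunit in Chr12 and named after its value was seen, stood there at 219 and 348 CPM in log phase and at 99.3 and 144 CPM at day 4. Its log2 fold change of -1.21 ± 0.45 (SE) did not pass the test (edgeR, adjusted p = 0.0914).

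PRE9, the one core subunit that yeast can live without, had the highest log2 fold change of the subunits in both strains. In log phase it stood at 128 and 121 CPM in the euploid and at 139 and 177 CPM in Chr12, and at day 4 at 1234 and 143 CPM and at 336 and 167 CPM. Replicate 1 was the higher day 4 library in both strains, and the phases overlapped in Chr12. The increase of 2.46 ± 0.91 (SE) on the log2 scale in the euploid did not pass the test (edgeR, adjusted p = 0.0833), and was 0.02 when the highest position of each gene was left out.

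A single position carried the replicate 1 value of PRE9. Positions are those of the 5′ end of the read, 12 nt before the P site, and are open to an error of 1 nt in genes on the Watson strand such as PRE9 and RPN5. In euploid day 4 replicate 1 the position 108 nt after the first base of the start codon held 309 of its 329 reads (93.9%), which was 47.25% of the reads of the whole core in that library. The same position held 106 of 186 reads (56.99%) in Chr12 day 4 replicate 1, and was also the highest in the log phase replicate 1 libraries, with 14.2% (euploid) and 9.51% (Chr12) of the reads. In the replicate 2 libraries the highest position lay elsewhere, 650 nt into the gene in log phase and 760 nt at day 4, with 10.3% to 20.6% of the reads.

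RPN5 showed the same feature. The gene stood in log phase at 195.5 and 169 CPM in the euploid and at 189 and 221 CPM in Chr12, and at day 4 at 709 and 239 CPM and at 292.5 and 169 CPM. Replicate 1 was again the higher library at day 4. The position 2 nt after the first base of the start codon held 172 of 189 reads (91.01%) in euploid day 4 replicate 1 and 103 of 162 reads (63.6%) in Chr12 day 4 replicate 1, and was not the highest in either replicate 2 library at day 4. PRE9 and RPN5 were the 2 subunits with over 50% of their reads at 1 position in Chr12 day 4 replicate 1. In euploid day 4 replicate 1 there were 3 such subunits, with PRE3 at 6 of its 8 reads, and in the other 6 libraries there were 0. Whether duplicate reads had been removed is not given in the sources used here.

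**Figure D3:**
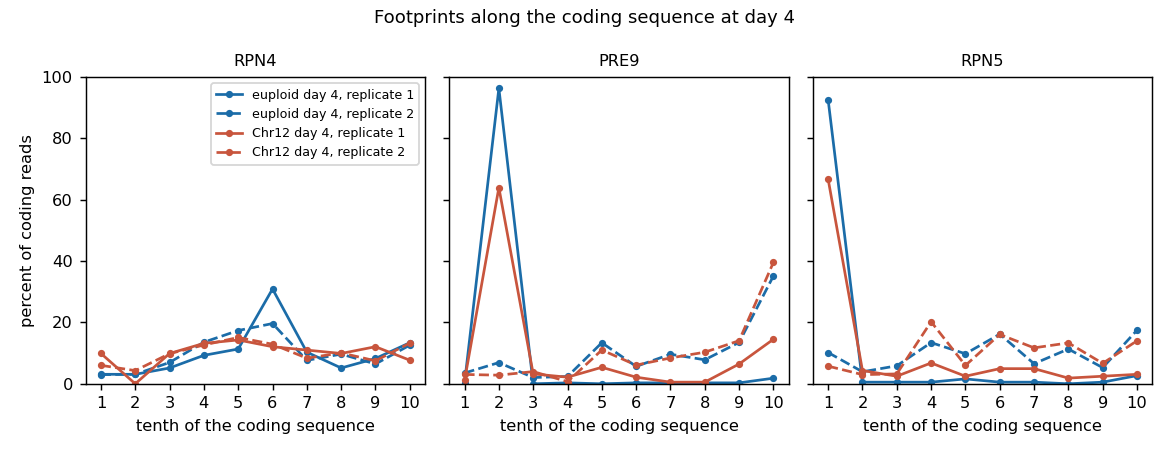
Percent of coding reads in each of 10 equal bins of the coding sequence at day 4 for RPN4, PRE9 and RPN5, with a colour per strain, solid lines for replicate 1 and dashed lines for replicate 2. In replicate 1, bin 2 of PRE9 held 96.3% (euploid) and 63.98% (Chr12) and bin 1 of RPN5 held 92.6% and 66.7%, while the highest bin of RPN4 held 14.3% to 30.9% in the 4 day 4 libraries.

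In the 19S particle the base and the lid were taken apart. The base holds the ATPases RPT1 (YKL145W), RPT2 (YDL007W), RPT3 (YDR394W), RPT4 (YOR259C), RPT5 (YOR117W) and RPT6 (YGL048C), the scaffolds RPN1 (YHR027C) and RPN2 (YIL075C) and the ubiquitin receptors RPN10 (YHR200W) and RPN13. All 10 base genes had a negative log2 fold change in Chr12 (median -0.53) and 5 of 10 had one in the euploid (median 0.04). Over all genes tested the negative shares were 43.2% in Chr12 (median 0.25) and 41.3% in the euploid (median 0.39). The 9 lid genes had medians of 0.02 in Chr12 and 0.42 in the euploid. The Chr12 median of the 19S particle was -0.62 without Chr12 day 4 replicate 2 and 0.06 without Chr12 log phase replicate 2. No base or lid gene passed the FDR in edgeR. At an unadjusted p under 0.05 stood 0 of 19 in the euploid and 1 of 19 in Chr12, beside the counts over all genes given above.

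RPN11 (YFR004W), the lid deubiquitinase, stood in log phase at 154 and 197 CPM in the euploid and at 135 and 214 CPM in Chr12, and at day 4 at 270 and 189 CPM and at 114 and 179 CPM. Its phases overlapped in both strains. The log2 fold change was 0.38 ± 0.48 (SE) in the euploid and -0.25 ± 0.47 (SE) in Chr12 (edgeR, adjusted p = 0.601 and 0.761).

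RPN10 stood in log phase at 133 and 156 CPM in the euploid and at 117 and 139 CPM in Chr12, and at day 4 at 78.8 and 103 CPM and at 54.2 and 92.03 CPM. Day 4 lay below log phase in both strains without overlap. The log2 fold change of -0.66 ± 0.44 (SE) in the euploid and -0.79 ± 0.44 (SE) in Chr12 did not pass the test (edgeR, adjusted p = 0.319 and 0.247). In the lid, apart from RPN11, RPN3 (YER021W) was at a higher level in both day 4 libraries of both strains and RPN7 (YPR108W) at a lower level in both. In Chr12 day 4 replicate 1, 26 of the 102 RPN3 reads (25.5%) lay at 1 position. RPN8 (YOR261C) and RPN5 were at a higher level without overlap in the euploid alone, RPN5 with most of its replicate 1 reads at 1 position. RPN3, RPN7, RPN8 and RPN5 did not pass the test in either strain.

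SEM1 was the lowest subunit in the euploid and has the shortest coding sequence, at 270 nt. In log phase it stood at 62.8 and 188.5 CPM in the euploid and at 61.3 and 190 CPM in Chr12, and at day 4 at 15.01 and 67.3 CPM and at 39.7 and 104 CPM. Replicate 2 was the higher library in every group, and the phases overlapped. In replicate 2 the highest position held 40.7% (euploid) and 44.7% (Chr12) of the SEM1 reads in log phase, and 29.9% and 32.3% at day 4. In replicate 1 it held 10.5% to 25%, where the 25% was 1 of only 4 SEM1 reads in euploid day 4 replicate 1. The log2 fold change of -1.48 ± 0.90 (SE) in the euploid did not pass the test (edgeR, adjusted p = 0.268). It passed under 1 of 15 alternatives, the replicate number as a block (-1.65, edgeR adjusted p = 0.0164).

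Core and 19S particle did not part from each other between the phases. The median log2 fold change of the core minus that of the 19S particle was -0.16 in the euploid and 0.23 in Chr12. Replicates 1 and 2 gave -0.17 and 0.12 in the euploid and -0.29 and 0.33 in Chr12, so the sign turned between replicates in both strains. Between the strains the difference was 0.00 in log phase and -0.06 at day 4. It is given with no test, since the genes of a complex are not replicates. By library, the median density of the 19S particle in Chr12 was 138 and 173 RPKM in the log phase libraries and 92.9 and 130 RPKM in the day 4 libraries, without overlap, whereas that of the core, 155 and 174 against 99.4 and 182 RPKM, overlapped.

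Summed over the 33 subunits, the order of the phases depended on the scale and on single genes. As a share of all reads in the library, the subunits took 0.425% and 0.488% in the log phase libraries of the euploid, against 0.742% and 0.700% in its day 4 libraries. In Chr12 the log phase shares were 0.436% and 0.511%, and those at day 4 were 0.544% and 0.614%. On this scale every day 4 library was above both log phase libraries of its strain, which without PRE9 and RPN5 held in the euploid and not in Chr12. After TMM scaling the sums were 5256 ± 427 CPM in log phase and 6446 ± 802 CPM at day 4 in the euploid (SD, n = 2), with day 4 still above log phase. That order rested on PRE9 and RPN5, most of whose reads in euploid day 4 replicate 1 lay at 1 position each. Summed without these 2 genes, a choice made after seeing the data, the euploid libraries stood at 4631 and 5268 CPM in log phase and 3936 and 6631 CPM at day 4, and overlapped. In Chr12 the sums over all 33 subunits were 5925 ± 1262 CPM in log phase and 4588 ± 980 CPM at day 4 (SD, n = 2), and the phases overlapped. An exact permutation test of 2 libraries against 2 cannot go below a two-sided p of 0.333.

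The strains were then compared within each phase. In log phase edgeR called 0 of 34 genes between Chr12 and euploid, beside 0% of all genes tested, and at day 4 it called 0 of 34, beside 0.069% of all genes tested. In each phase 0 of 34 had an unadjusted p under 0.05, and DESeq2 called 0 of 34. Over all 5794 genes tested, 106 in log phase and 501 at day 4 had an unadjusted p under 0.05. DESeq2 called 1 of all genes in log phase, and 64 higher and 31 lower at day 4. The median log2 fold change of the subunits (Chr12 over euploid) was 0.17 in log phase, against -0.00 over all genes tested, and -0.25 at day 4, against -0.09.

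In log phase both Chr12 libraries were above both euploid libraries for 9 of 33 subunits (27.3%, against 15.3% of all genes tested) and below them for 1 (3.03%, against 15.2%). At day 4 they were above for 0 of 33 (against 16%) and below for 8 (24.2%, against 16%). The log phase median was -0.00 without Chr12 log phase replicate 2 and 0.37 without Chr12 log phase replicate 1. At day 4 the median was 0.49 without euploid day 4 replicate 2, 0.02 without Chr12 day 4 replicate 1, -0.60 without euploid day 4 replicate 1 and -0.69 without Chr12 day 4 replicate 2.

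RPN13 is the only member on chromosome XII, and its log2 fold change between the strains was the highest of the 34 in log phase. There it stood at 118 and 119 CPM in the euploid and at 200 and 312 CPM in Chr12, with no overlap. At day 4 it stood at 71.3 and 98.1 CPM in the euploid and at 61.4 and 139 CPM in Chr12, and the groups overlapped. Chr12 was 2.16-fold higher in log phase (log2 fold change 1.11 ± 0.52, SE; edgeR, adjusted p = 1) and 1.18-fold higher at day 4 (0.24 ± 0.52, SE; edgeR, adjusted p = 0.935), and neither passed the test. RPN13 lay at percentile 83.8 of the chromosome XII genes by this fold change in log phase and at percentile 31.1 at day 4.

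The day 4 value of RPN13 against log phase was the lowest of the subunits in Chr12, at -1.33 ± 0.52 (SE; edgeR, adjusted p = 0.107). It was -0.47 ± 0.52 (SE) in the euploid, and the difference between the strains, -0.87 ± 0.74 (SE), did not pass the test (edgeR, adjusted p = 0.999). The Chr12 decrease passed under DESeq2 (-1.49, adjusted p = 0.0492), with the second tables of the replicate 1 libraries (-1.53, edgeR adjusted p = 0.0116) and with the replicate block (-1.38, edgeR adjusted p = 0.0428). It did not pass under the other 13 of 16 alternatives, and was -2.055 to -0.864 when a library was left out.

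The other extremes lay within 2 SE of 0. In log phase the lowest member between the strains was RPN6, at 123 and 121 CPM in the euploid and at 107 and 87.6 CPM in Chr12 (log2 fold change -0.33 ± 0.46, SE). At day 4 the highest was SEM1 (0.70 ± 0.89, SE) and the lowest PRE9 (-1.45 ± 0.88, SE), which stood at 0.43 without the highest position of each gene.

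Between the strains RPN4 overlapped in log phase (log2 fold change 0.13 ± 0.49, SE; edgeR, adjusted p = 1). At day 4 both Chr12 libraries were below both euploid ones, by 1.85-fold (log2 fold change -0.89 ± 0.48, SE), which did not pass the test (edgeR, adjusted p = 0.636). The day 4 value was negative under all 16 alternatives, from -1.37 to -0.28. The change of RPN4 from log phase to day 4 was smaller in Chr12, with a difference of -1.02 ± 0.69 (SE) on the log2 scale that did not pass the test either (edgeR, adjusted p = 0.999).

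For the difference between the strains in the change from log phase to day 4, edgeR called 0 of 34 genes, beside 0% of all genes tested, with 0 of 34 at an unadjusted p under 0.05 and 0 by DESeq2. Over all 5794 genes tested, 245 had an unadjusted p under 0.05, and DESeq2 called 26 positive and 10 negative. The difference (Chr12 minus euploid) was negative for 30 of 33 subunits (90.9%), against 53.7% of all genes tested, with a median of -0.46 against -0.09. The genes of a complex share their libraries, and without euploid day 4 replicate 2 the median was 0.37, against 0.26 over all genes tested.

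**Figure D4:**
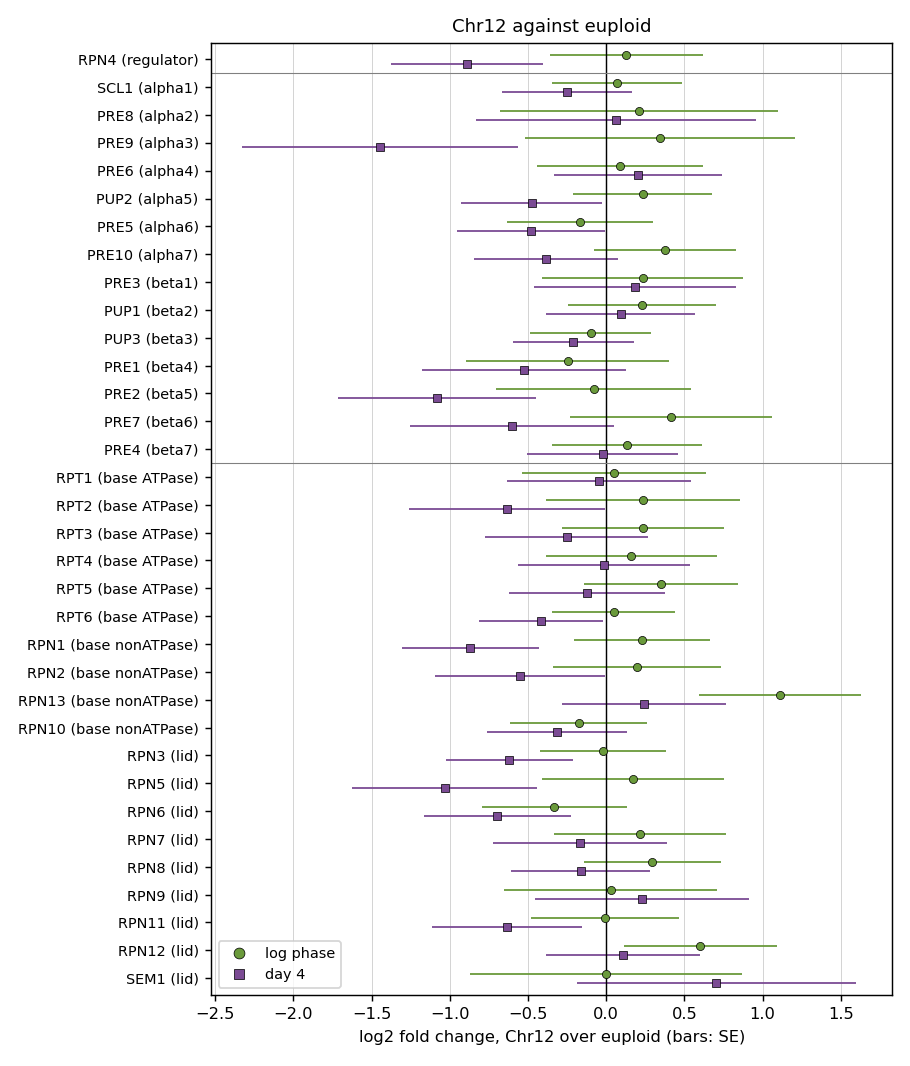
Log2 fold change of Chr12 over euploid for the 34 genes, with circles for log phase, squares for day 4 and bars for the SE. RPN13, the gene on chromosome XII, is the highest in log phase at 1.11, and at day 4 the lowest value is that of PRE9 at -1.45.

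A list of 27 further genes around the proteasome was read from the same fit, made up of assembly chaperones, factors that bind the complex, factors that deliver substrates, and genes that control RPN4. All 27 were tested. At day 4 against log phase edgeR called 6 higher and 1 lower in the euploid, beside 15.6% and 11.6% of all genes tested, and 4 higher and 0 lower in Chr12, beside 13.2% and 9.67%. DESeq2 called 7 and 5, beside its counts over all genes given above. The median of the list was 0.97 in the euploid and 0.12 in Chr12, against 0.39 and 0.25 over all genes tested. Between the strains 0 of 27 passed in log phase or at day 4 in edgeR. There 0 and 1 had an unadjusted p under 0.05 and DESeq2 called 0, beside the counts over all genes given above.

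Of the factors that bind the proteasome, SPG5 (YMR191W), which is needed for survival in stationary phase and binds the base, rose most in both strains. In log phase it stood at 19.3 and 17.2 CPM in the euploid and at 15.7 and 12.8 CPM in Chr12, and at day 4 at 1002 and 1531 CPM and at 1078 and 1002 CPM. All 4 day 4 libraries were far above all 4 log phase libraries, and the strains overlapped at day 4. The increase was 69.2-fold in the euploid (log2 fold change 6.11 ± 0.54, SE; edgeR, adjusted p = 0.00143) and 72.5-fold in Chr12 (6.18 ± 0.55, SE; edgeR, adjusted p = 0.00191), and it passed under every alternative run.

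HUL5 (YGL141W), a ubiquitin ligase of the proteasome, rose in the euploid. Its log phase libraries stood at 29.7 and 25.8 CPM in the euploid and at 32.9 and 30.3 CPM in Chr12, and at day 4 at 78.8 and 108 CPM and at 74.03 and 43.3 CPM. Day 4 lay above log phase without overlap in both strains. The log2 fold change was 1.76 in the euploid (edgeR, adjusted p = 0.0220) and 0.87 in Chr12 (edgeR, adjusted p = 0.200). The euploid call was lost without euploid log phase replicate 1 or 2, euploid day 4 replicate 2 (1.15) or Chr12 day 4 replicate 1 (edgeR, adjusted p of 0.0533 to 0.154). BLM10 (YFL007W), an alternative cap of the core, ECM29 (YHL030W) and UBP6 (YFR010W) did not pass in either strain.

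Some genes that act on RPN4 also rose. MUB1 (YMR100W), the partner of the ubiquitin ligase Ubr2 in the degradation of Rpn4, stood in log phase at 17.6 and 19.6 CPM in the euploid and at 18.2 and 10.1 CPM in Chr12, and at day 4 at 128 and 191 CPM and at 105 and 95.9 CPM. Day 4 lay above log phase without overlap in both strains. Its log2 fold change was 3.11 in the euploid and 2.81 in Chr12 (edgeR, adjusted p = 0.00372 and 0.00708), and the Chr12 call was lost without Chr12 log phase replicate 2 (2.47, edgeR adjusted p = 0.0800).

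YAP1 (YML007W), an activator of the oxidative stress response that can induce RPN4, stood in log phase at 62.2 and 39.9 CPM in the euploid and at 62.3 and 40.4 CPM in Chr12, and at day 4 at 469 and 251 CPM and at 175 and 220 CPM. Here too the phases did not overlap in either strain. Its log2 fold change was 2.80 in the euploid and 1.94 in Chr12 (edgeR, adjusted p = 0.00772 and 0.0311). The euploid call was lost without euploid log phase replicate 2 (2.53, edgeR adjusted p = 0.0808), and the Chr12 call without any one of the log phase libraries or of the Chr12 day 4 libraries (1.68 to 2.29, edgeR adjusted p of 0.0561 to 0.226). UBR2 (YLR024C), RAD6 (YGL058W), PDR1 (YGL013C), PDR3 (YBL005W) and HSF1 (YGL073W) did not pass in either strain.

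Among the assembly chaperones, NAS2 (YIL007C), which acts on the base, stood in log phase at 6.61 and 10.2 CPM in the euploid and at 10.3 and 10.1 CPM in Chr12, and at day 4 at 33.8 and 65.1 CPM and at 28.9 and 57.2 CPM. It rose in both strains without overlap, by 2.62 in the euploid and 2.10 in Chr12 on the log2 scale (edgeR, adjusted p = 0.0116 and 0.0274). The euploid call was lost without euploid log phase replicate 1 or 2 or euploid day 4 replicate 2 (1.67 to 2.96, edgeR adjusted p of 0.0619 to 0.142). The Chr12 call was lost without any one of the log phase libraries or of the Chr12 day 4 libraries (1.499 to 2.49, edgeR adjusted p of 0.0507 to 0.189).

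POC4 (YPL144W), a chaperone of the α ring, fell in the euploid. The log phase libraries stood at 31.4 and 21.1 CPM in the euploid and at 24.5 and 25.6 CPM in Chr12, and at day 4 at 3.75 and 6.44 CPM and at 12.6 and 7.35 CPM. Day 4 lay below log phase in both strains, with 1 and 40 reads in the euploid day 4 libraries. The log2 fold change was -2.18 in the euploid (edgeR, adjusted p = 0.0279) and -1.39 in Chr12 (edgeR, adjusted p = 0.113). The euploid call was lost without any one of the log phase libraries (-2.44 to -1.88, edgeR adjusted p of 0.0646 to 0.178), and the Chr12 value passed without euploid day 4 replicate 1 (-1.52, edgeR adjusted p = 0.0490). UMP1 (YBR173C), the core maturation factor, PBA1 (YLR199C), ADD66 (YKL206C), IRC25 (YLR021W), NAS6 (YGR232W), HSM3 (YBR272C) and RPN14 (YGL004C) did not pass in either strain.

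Among the delivery factors the shuttle DDI1 (YER143W) rose in the euploid. DDI1 stood in log phase at 42.4 and 51.6 CPM in the euploid and at 58.4 and 51.9 CPM in Chr12, and at day 4 at 236 and 173 CPM and at 52.4 and 84.7 CPM. The euploid phases did not overlap, and those of Chr12 did. Its log2 fold change was 2.11 ± 0.45 (SE) in the euploid (edgeR, adjusted p = 0.0113) and 0.33 ± 0.44 (SE) in Chr12 (edgeR, adjusted p = 0.650), and the difference between the strains, -1.79, did not pass the test (edgeR, adjusted p = 0.999). The euploid call was lost without euploid log phase replicate 1 (1.98, edgeR adjusted p = 0.106) or replicate 2 (2.27, edgeR adjusted p = 0.0790). RAD23 (YEL037C), DSK2 (YMR276W) and the segregase CDC48 (YDL126C) with its cofactors UFD1 (YGR048W) and NPL4 (YBR170C) did not pass in either strain.

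**Figure D5:**
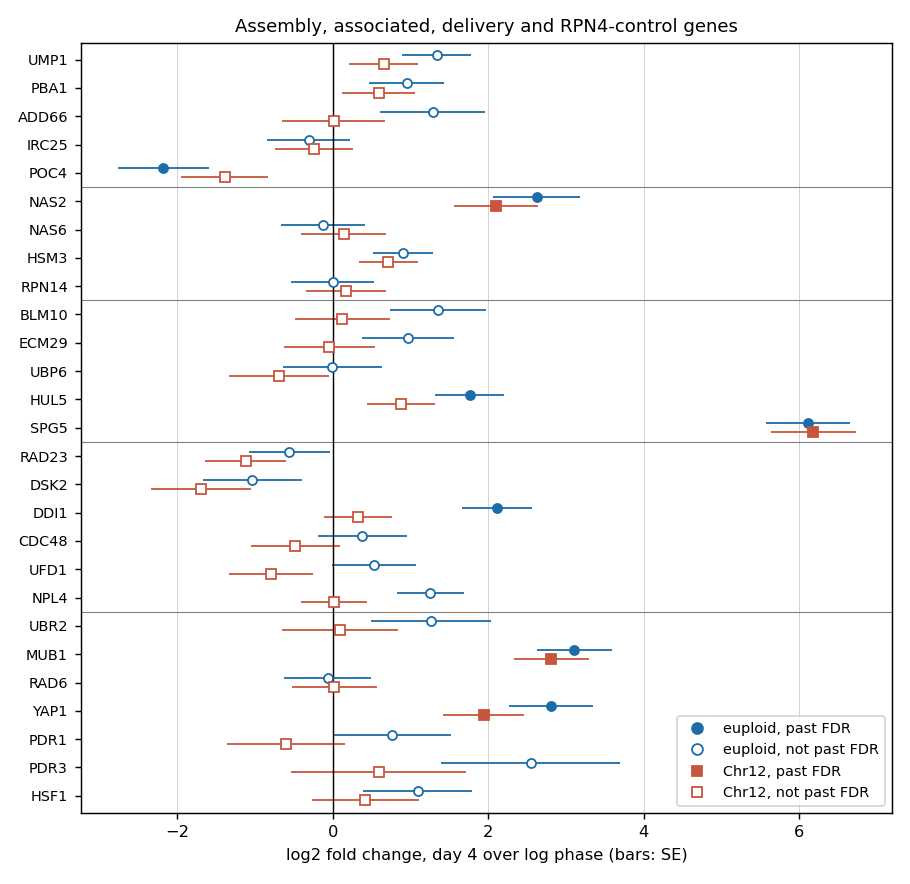
Log2 fold change of day 4 over log phase for the 27 further genes, in 5 blocks (core assembly, base assembly, associated factors, delivery, control of RPN4), with circles for the euploid, squares for Chr12, bars for the SE and filled symbols for values past the FDR. SPG5 stands at 6.11 and 6.18, and MUB1, YAP1 and NAS2 are filled in both strains.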

How the data were processed

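Ribosome-protected fragments were sequenced from the 8 libraries, and the deposited tables hold raw read counts at each nucleotide, 1 row per gene. Before deposit the authors trimmed adapters, dropped reads of poor first-base quality and reads of noncoding RNA, and used bowtie2 with the genome of YPS1009. Each read was scored where its 5′ end fell, over a window that ran from 72 nt upstream of the start codon to 60 nt downstream of the stop. Rows of most genes on the Watson strand were 1 nt shorter, which was taken from the upstream end. Replicates were not pooled. Here a gene's count was the sum of its row, and 4 rows without a systematic name (at most 0.0222% of a library) were left out. Of the genes, 5821 matched the R64 gene table. Chromosomes follow from the systematic names. A second table of each replicate 1 library, of unstated origin and with fewer reads, served as an alternative.

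Counts were fitted in edgeR 4.0.16 (quasi-likelihood, TMM scaling, its expression filter) under R 4.3.3, as a model of the 4 group means over all 8 libraries without a replicate block. The Benjamini-Hochberg adjustment ran over all 5794 genes tested, at an FDR of 0.05. SEs were derived from the quasi-likelihood F. Differences within 1 replicate number used log2 of CPM plus 1. The fit was tested on simulated data, where it missed small and moderate changes at this spread. The alternatives were DESeq2 1.42.0, RLE size factors, no filter on low counts, at least 10 reads in every library, gene bodies without 20 codons at each end, counts without each gene's highest position, the second tables, the replicate number as a block, and each library left out in turn.

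The 34 members and the list of 27 genes were chosen with earlier results of these data known. Named with values were RPN4, RPN13, the 3 catalytic subunits, RPN11, RPN10, members past the FDR, the highest and lowest member in each strain comparison and by density, and genes of the list past the FDR in any comparison. RPN5, PUP2, RPN3, RPN7, RPN8, RPN12 and RPN1 were added after their values were seen.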

Additional observations from a re-analysis of the deposited data

Results flagged for a closer look

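RPN1, the large scaffold of the base, was the single gene among the 34 and the further 27 whose libraries moved in opposite directions in the 2 strains. In log phase it stood at 380 and 455 CPM in the euploid and at 418.5 and 560 CPM in Chr12, and at day 4 at 465 and 585 CPM and at 246 and 329 CPM. Both day 4 libraries were thus above both log phase libraries in the euploid and below both in Chr12. Of all genes tested 33.1% lay above in this way in the euploid and 28.4% below in Chr12. The share that did both was not counted, so RPN1 has no background to be set against. In euploid day 4 replicate 1, the shallowest library, 47 of the 124 RPN1 reads (37.9%) lay at 1 position. In Chr12 day 4 replicate 1 the same position held 23 of 136 reads (16.9%). Whether the opposite directions hold without that position was not tested. The difference between the strains in the change from log phase to day 4 was -1.10 ± 0.61 (SE) on the log2 scale and did not pass the test (edgeR, adjusted p = 0.999).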

How the results depend on the processing

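In the euploid 2 of the 34 genes passed under DESeq2 (PRE9 and RPN4), 2 with the replicate block (RPN4, and SEM1 lower), and 1 to 5 when a library was left out, 5 of them without euploid day 4 replicate 2. In Chr12 3 passed under DESeq2, 2 without the highest position of each gene (RPN4, and PUP2 lower), 7 with the second tables (RPN4 higher, and PRE6, PRE7, PUP2, RPN1, RPN7 and RPN13 lower), 2 with the replicate block (RPN4, and RPN13 lower), and 0 to 1 when a library was left out. The 3 comparisons between strains gave 0 of 34 under all 16 alternatives. The cause of these changes was not tested.

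Groups share replicate numbers, and the study set aneuploid against euploid profiles of the same number, but the labels name no shared culture or day for a number and its methods give no paired test of gene counts. Their deviations from the group means correlated at 0.16 to 0.69 over the 6 pairs of groups, and the replicate block raised the count of calls from 1 to 2 in each strain and changed no count between the strains. Of the single values, the replicate block changed the calls of SEM1 in the euploid (-1.65) and RPN13 in Chr12 (-1.38).

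The core minus 19S difference was 0.104 in the euploid with the second tables and -0.186 to 0.055 when a library was left out. It was -0.235 to 0.391 in Chr12 when a library was left out. Between the strains in log phase it was -0.084 with at least 10 reads in every library, -0.037 in gene bodies, -0.031 without the highest positions, 0.059 with the second tables and -0.095 to 0.173 when a library was left out. The values that turned sign were of genes that had not passed. In the euploid PRE3 went to -0.095 without the highest positions and -0.026 with the replicate block. In Chr12 PRE3, PUP1 and PRE2 went to -0.030, -0.018 and -0.087 with RLE size factors, to -0.030, -0.014 and -0.084 under DESeq2, and to -0.083, -0.273 and -0.204 with the second tables, PRE2 also to -0.087 in gene bodies and -0.082 with the replicate block, and PRE9 to -0.342 with the second tables. PRE9 at day 4 between the strains went to 0.431 without the highest positions. Left-out libraries gave -0.099 to 0.347 for RPN4 and -0.485 to 0.826 for RPN13 between the strains (log phase and day 4). They gave -1.659 to 0.828 for PRE3 and -0.732 to 0.690 for PUP1 in the euploid. In Chr12 they gave -0.351 to 0.489 for PRE3, -0.157 to 0.395 for PUP1, -1.075 to 0.691 for PRE2, -0.616 to 0.128 for RPN11 and -0.071 to 0.627 for DDI1. At day 4 between the strains they gave -0.176 to 2.577 for SEM1 and -2.097 to 0.648 for PRE9.

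Over all genes, 1574 passed in the euploid against 993 with at least 10 reads and 633 to 1786 with a library left out, and 1327 in Chr12 against 2062 with the second tables and 62 to 1805 with a library left out. At day 4 between the strains 4 passed, against 0 with RLE size factors or no filter, 2 with at least 10 reads, 30 without the highest positions, 39 with the second tables, 95 under DESeq2 and 0 to 3 with a library left out. DESeq2 called 1 gene between the strains in log phase and 36 for the strain difference in the day 4 change, where edgeR called 0 and 0, and for the latter 2 passed with at least 10 reads and 4 without the highest positions. In the shallowest library, of 211302 reads, subunits held 2 to 329 reads, which limits what a test of 2 libraries against 2 could call.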
